A study of Mus musculus with 24 samples.

Results

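The Period genes Per1, Per2 and Per3, the cryptochrome genes Cry1 and Cry2, and Ciart encode repressors of the circadian clock. They were taken by gene symbol from the platform annotation, which gave 6 genes of 19935 tested, on 7 of 28815 probe sets (2 for Ciart and 1 for each other gene). RNA came from livers of adult male C57BL/6 mice, an inbred wild-type strain with no transgene or deletion named in the labels. The animals had been entrained to alternating light and dim red light and were then kept in constant dim red light, and the livers were frozen on the second cycle after the change. Each of the 8 circadian times from CT00 to CT21, 3 h apart, had 3 Affymetrix Mouse Gene 1.0 ST arrays from separate livers, 24 in all. Food was freely available. The study's text speaks of 4 times and its protocol of 4 mice per harvest, and the sample labels, with 8 times and 3 replicates, were followed. By convention CT00 marks the hour at which light used to come on. Hours up to CT12 form the subjective day, and the hours after it the subjective night, the active phase of mice.

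In the mammalian clock the activators CLOCK and BMAL1 bind E-boxes, short DNA motifs, and switch on the Per, Cry and Ciart genes. PER and CRY proteins assemble into complexes, return to the nucleus and repress CLOCK and BMAL1, and so lower their own transcription until they are degraded and the cycle restarts. The Per genes also answer to signals such as glucocorticoids, cyclic AMP and heat, the CRY proteins are the stronger repressors, and CIART (also called CHRONO) represses BMAL1 without needing PER. In liver this loop times the transcription of metabolic genes.

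The deposited values are log values from which the median of each probe set over the 24 arrays was subtracted, as tested on the file. A value of 0 is therefore the gene's own median, levels of different genes cannot be compared, and folds hold if the log base is 2, which the sources used here do not state. The medians of the arrays ran from -0.0185 to 0.0147 and their interquartile ranges from 0.0992 to 0.200. The number of arrays, not a read depth, sets the precision. In bulk liver, fewer cells of a type and less RNA per cell cannot be told apart. Levels are not in the values, so the tissue could not be checked against its markers. Of 12 hepatocyte markers 10 were tested, and their mean over a time lay between -0.05 and 0.06. The 24 h fit used below called 3 of the 10 (Cyp2e1, Hnf4a and Fgb), beside 13.8% of all genes. Of 34 tested markers of Kupffer, endothelial, stellate, bile duct and red blood cells and lymphocytes it called 2, beside the same 13.8%. They were Pdgfrb of stellate cells and Sox9 of bile ducts. The widest range of a list's time means was that of the endothelial markers, from -0.16 to 0.11, and its part in the results below was not tested.

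All 6 repressor genes varied over the sampled cycle in a way that a 24 h wave describes, but in 3 time windows. The 8 times cover a single cycle, so the period of 24 h was set and not measured. Ciart, Per3, Per1 and Cry2 crested between 11.3 and 12.45 h, around subjective dusk, Per2 at 15.2 h in the early night and Cry1 at 20.04 h in the late night. Limma's moderated F for a cosine and sine of 24 h called 6 of 6 at an adjusted p under 0.05, against 13.8% of all genes, and the test of equality of the 8 times also called 6 of 6, against 10.9% of all genes. Cry2 moved little and Ciart most: the fitted amplitude, which is the log2 height of the crest above the wave's mean level, was 0.19 ± 0.04 (SE) for Cry2 and 1.28 ± 0.13 for Ciart. Between them lay Per2 with 0.66 ± 0.04, Per3 with 0.71 ± 0.06, Per1 with 0.72 ± 0.06 and Cry1 with 0.75 ± 0.05, and neighbours in this order overlapped within their standard errors. Among all 19935 genes Ciart ranked 4, Cry1 29, Per1 31, Per3 36, Per2 49 and Cry2 1163 by amplitude. The median peak-to-trough fold was 1.07 over all genes and 1.26 over the called ones.

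**Figure D1:**
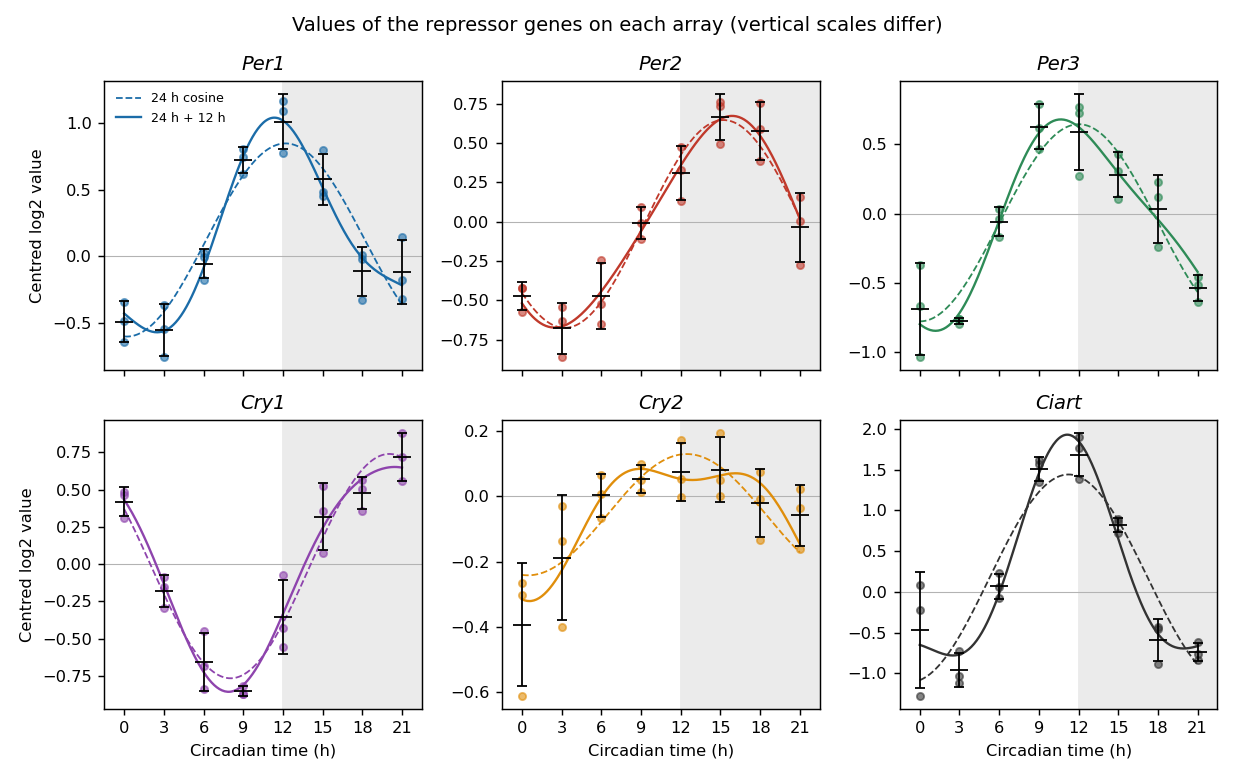
Centred log2 value (vertical axis, scales differ between panels) against circadian time in h for each gene. Dots are the 24 arrays, black bars the mean ± SD of 3 arrays, dashed lines the 24 h cosine, solid lines the curve with an added 12 h wave, and grey marks the subjective night; Per2 is highest at CT15 and Cry1 at CT21, while Ciart and Per1 are highest at CT12.

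The DNA just before the transcription start is shown for the 3 genes with an E-box CACGTG in it and for Per3, which has D-boxes in its place, since E-boxes and D-boxes, the sites of the PAR bZIP factors, are the textbook entry points of clock control. The sequences are RefSeq's for GRCm38.p6 and run from 250 bases before to 50 after the start. The tables used here hold a window for 5 of the 6 genes, with 2 for Per1. Both strands were searched for the E-box CACGTG, its variant CACGTT, the D-boxes TTATGTAA and TTACGTAA, the core TGACGT of cyclic AMP response elements and the core TAGGTCA of ROR elements, with the sequences already in view. Matches are in capitals below, and no 2 of them overlap.
Ciart, chr3:95882179-95882478, minus strand: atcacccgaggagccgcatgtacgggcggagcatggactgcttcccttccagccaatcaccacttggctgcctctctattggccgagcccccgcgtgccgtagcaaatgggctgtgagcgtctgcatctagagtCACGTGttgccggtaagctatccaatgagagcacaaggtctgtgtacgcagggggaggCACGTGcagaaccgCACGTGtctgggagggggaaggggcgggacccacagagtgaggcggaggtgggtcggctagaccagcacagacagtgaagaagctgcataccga
Per1, chr11:69098699-69098998, plus strand: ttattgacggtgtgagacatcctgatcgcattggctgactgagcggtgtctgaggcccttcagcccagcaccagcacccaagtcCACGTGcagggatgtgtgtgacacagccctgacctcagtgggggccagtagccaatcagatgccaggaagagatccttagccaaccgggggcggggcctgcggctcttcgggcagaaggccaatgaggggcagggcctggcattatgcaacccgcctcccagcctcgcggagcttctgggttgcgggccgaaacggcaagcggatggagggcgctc
Per3, chr4:151044616-151044915, minus strand: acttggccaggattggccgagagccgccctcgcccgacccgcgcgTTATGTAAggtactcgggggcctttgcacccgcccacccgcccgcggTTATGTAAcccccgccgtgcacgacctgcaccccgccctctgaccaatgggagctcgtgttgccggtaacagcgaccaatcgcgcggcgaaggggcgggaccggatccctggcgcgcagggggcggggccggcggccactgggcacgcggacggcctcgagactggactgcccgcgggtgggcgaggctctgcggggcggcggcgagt
Cry1, chr10:85185005-85185304, minus strand: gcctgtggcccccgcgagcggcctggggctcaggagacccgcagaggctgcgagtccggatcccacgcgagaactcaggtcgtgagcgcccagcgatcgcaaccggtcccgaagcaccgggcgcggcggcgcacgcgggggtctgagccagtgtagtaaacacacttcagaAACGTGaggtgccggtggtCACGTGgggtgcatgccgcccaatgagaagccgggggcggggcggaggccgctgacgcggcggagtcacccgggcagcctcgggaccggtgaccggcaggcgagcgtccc
The Ciart window holds 3 E-boxes, whose first bases lie 116, 58 and 44 bases before the start. Of 32817 windows of this length, 7.15% hold CACGTG at all and 0.0884% hold it 3 or more times. The Per1 window shown holds 1 E-box, and the window of its other start (chr11:69099902-69100201, plus strand) holds 1 match to TGACGT, which 7.51% of windows hold. The Per3 window has no match to either E-box form but has 2 copies of TTATGTAA, 205 and 158 bases before the start. That D-box is present in 0.936% of windows and present 2 or more times in 0.0213%. Cry1 has 1 E-box and 1 copy of the variant form, and Cry2 (chr2:92434020-92434319, minus strand) has 1 copy of the variant, which 4.69% of windows hold. No ROR core or TTACGTAA was matched in these windows. A match is a stretch of letters and not a measured binding site, and a link between matches and waves was not tested.

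Ciart had the widest wave of the 6 and lies at chr3:95878500-95882257. Its values, the means of both probe sets, were -1.28, -0.23 and 0.09 at CT00, -0.73, -1.03 and -1.12 at CT03, and 0.06, -0.08 and 0.23 at CT06. They stood at 1.61, 1.57 and 1.35 at CT09 and 1.76, 1.39 and 1.90 at CT12, above every array of the other times. At CT15 they were 0.85, 0.90 and 0.73, at CT18 -0.46, -0.89 and -0.43, and at CT21 -0.76, -0.83 and -0.62. The plateau thus covered CT09 and CT12, whose arrays overlap, and CT15 lay between plateau and trough without touching the arrays of its neighbours in this order, CT09 and CT06. The fit gave a 5.86-fold peak-to-trough difference with a crest at 11.3 h ± 0.38 (SE; adjusted p = 3.56e-07, limma). The arrays of CT00, CT18, CT21 and CT03 overlapped in this order of falling means, and those of CT00 were spread over the widest range.

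Per1 (chr11:69095108-69109965), the Period gene known for its quick response to outside signals, followed a similar course at a smaller scale. It read -0.65, -0.48 and -0.34 at CT00, -0.36, -0.55 and -0.75 at CT03, and -0.18, -0.01 and 0.02 at CT06. The highest means were those of CT09, with 0.80, 0.62 and 0.74, and CT12, with 1.17, 0.78 and 1.08. After 0.80, 0.48 and 0.45 at CT15 came -0.02, 0.01 and -0.33 at CT18 and -0.18, -0.32 and 0.15 at CT21. All 9 arrays from CT09 to CT15 lay above all 15 others. The fold was 2.73 with a crest at 12.2 h ± 0.34 (SE; adjusted p = 4.47e-08, limma). CT06, CT18 and CT21 had nearly the same mean (-0.05, -0.11 and -0.12), and only CT00 and CT03 were lower than all of their arrays.

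Per3 (chr4:150997018-151044707), which has the mildest effect on the clock of the Period genes, reached its highest mean already at CT09. Its values were -1.03, -0.67 and -0.37 at CT00, -0.76, -0.76 and -0.80 at CT03, and -0.04, -0.17 and 0.04 at CT06. They came to 0.47, 0.62 and 0.79 at CT09 and 0.77, 0.27 and 0.73 at CT12. Later they were 0.43, 0.11 and 0.31 at CT15, 0.23, -0.24 and 0.12 at CT18, and -0.64, -0.45 and -0.52 at CT21. From the high means to the low ones, neighbouring times overlapped at every place but one, the gap between CT06 (-0.06 ± 0.10, SD, n = 3) and CT21 (-0.54 ± 0.09, SD, n = 3). The fold was 2.68 and the crest lay at 12.0 h ± 0.32 (SE; adjusted p = 1.62e-08, limma).

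Per2, the Period gene whose loss most weakens the rhythm (chr1:91415977-91459351), ran later than its relatives. It gave -0.42, -0.42 and -0.58 at CT00, -0.63, -0.54 and -0.86 at CT03, and -0.52, -0.24 and -0.65 at CT06. At CT09, when Per1, Per3 and Ciart were near their highest, it read only -0.11, -0.01 and 0.10, and at CT12 0.33, 0.47 and 0.13. The top lay at CT15 with 0.74, 0.76 and 0.50 and at CT18 with 0.59, 0.38 and 0.75, followed by 0.16, -0.27 and 0.01 at CT21. These last 3 arrays overlapped with those of CT09 and lay above those of CT00. A plain cosine held 98.3% of the sum of squares between the times, the largest share among the 6, with a 2.497-fold difference and a crest at 15.2 h ± 0.25 (SE; adjusted p = 3.10e-10, limma).

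Cry1 (chr10:85131700-85185054), the late repressor of the loop, had its lowest mean at CT09, when Per3 had its highest. It stood at 0.48, 0.47 and 0.31 at CT00, -0.30, -0.09 and -0.16 at CT03, and -0.69, -0.45 and -0.84 at CT06. At CT09 it read -0.82, -0.87 and -0.87, overlapping with CT06, and at CT12 it still read -0.43, -0.08 and -0.55. It then stood at 0.52, 0.08 and 0.36 at CT15, 0.57, 0.35 and 0.50 at CT18, and 0.88, 0.72 and 0.56 at CT21. All 12 arrays of CT15, CT18, CT21 and CT00 lay above all 12 of the other times. The fold was 2.84 and the crest at 20.04 h ± 0.23 (SE; adjusted p = 8.82e-11, limma), the smallest error of the 6 peak times.

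Cry2 (chr2:92403646-92434085), the other cryptochrome gene, moved far less than Cry1. Its values at CT00 were -0.61, -0.30 and -0.27, and at CT03 -0.14, -0.40 and -0.03. From CT06 to CT21 all 18 arrays lay between -0.16 and 0.19, and the means of these 6 times between -0.06 and 0.08. The highest mean was that of CT15 (0.08), close to that of CT12 (0.07). The wave was therefore mostly a dip around subjective dawn, with a 1.29-fold fitted difference and a crest at 12.45 h ± 0.75 (SE; adjusted p = 0.00258, limma). The equality of the 8 times passed with an adjusted p of 0.0117, but not without CT00 replicate 1 (adjusted p = 0.0538) or without all of CT00 (adjusted p = 0.234). The 24 h call held under every alternative run, with adjusted p from 0.00129 to 0.0378.

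The gaps between the peak times answer how far apart the repressors ran, and 10 of the 15 pairs had a 95% interval that left out 0. The intervals use the covariance of both genes' residuals around the cosine, which holds shared misfit of the wave as well as shared arrays. For Per1 and Ciart these residuals had r = 0.70, against 0.45 for deviations from the time means. The intervals are not adjusted for the 15 pairs. Per2 crested 3.03 h after Per1 (interval 2.02 to 4.05) and 3.21 h after Per3 (2.29 to 4.12). Cry1 followed Per2 by 4.81 h (4.08 to 5.54), Per1 by 7.84 h (6.94 to 8.75) and Per3 by 8.02 h (7.23 to 8.80). Cry1 came 7.59 h after Cry2 (5.88 to 9.30), and its gap of 8.78 h to Ciart (7.79 to 9.78) was the widest of the 15. Per2 also followed Ciart, by 3.98 h (2.89 to 5.06), and Cry2, by 2.78 h (0.99 to 4.57). The gap to Cry2 is one of fitted crests, since the means of both genes were highest at CT15. Among the 4 dusk genes only Per1 and Ciart were apart, with Per1 later by 0.94 h (0.28 to 1.60). The intervals of the other 5 pairs, all among the dusk genes, held 0. Per1 came 0.17 h after Per3 (-0.69 to 1.03), and Per3 came 0.77 h after Ciart (-0.04 to 1.57). Cry2 came 0.26 h after Per1 (-1.57 to 2.08), 0.43 h after Per3 (-1.15 to 2.00) and 1.20 h after Ciart (-0.68 to 3.08). Gaps within these bounds could not be told from none.

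The dusk order depended on how a peak was read. The alternatives are given as Ciart minus the other gene. When the peak was taken from a curve with an added 12 h wave, Ciart minus Per1 shrank to -0.20 h and Ciart minus Per3 became 0.49 h, and without the 4 arrays of widest interquartile range (chosen after seeing the data) Ciart minus Per1 was -0.60 h with an interval that held 0. Ciart minus Per3 left out 0 when any 1 of CT06 replicates 1 (-0.88 h), 2 (-0.85 h) or 3 (-0.87 h), CT09 replicate 3 (-0.88 h) or CT15 replicate 2 (-0.89 h) was dropped. It also did so without all of CT06 (-1.19 h) or CT15 (-0.94 h), with array weights (-1.01 h), with the probe set of largest spread (-0.99 h) and with the residual covariance taken around the 8 means (-0.77 h). Per3 minus Per1 left out 0 without CT18 (-0.95 h), and Ciart minus Cry2 without CT06 (-2.23 h). In the curve with both waves Per2 minus Per1 was 4.53 h, Cry2 minus Cry1 -11.5 h and Cry2 minus Per2 -6.95 h. Cry2's crest in that curve fell at 8.93 h, on its flat top, so its peak time is the least defined of the 6.

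**Figure D2:**
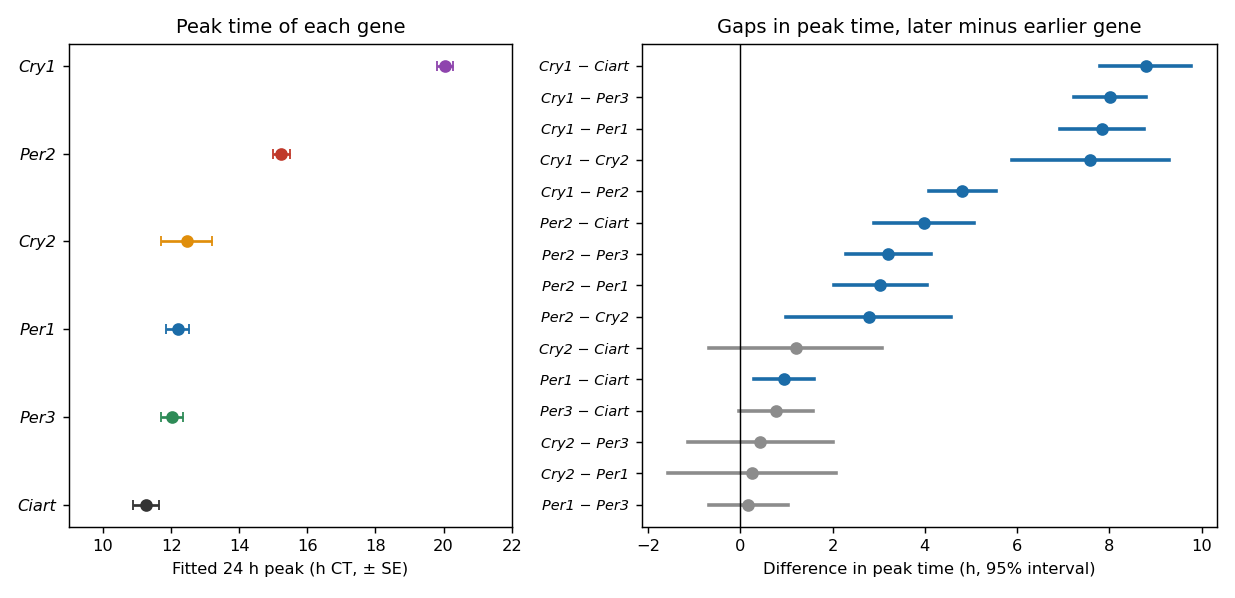
Left, fitted 24 h peak in h of circadian time with its SE for each gene; right, difference in peak time in h for the 15 pairs with 95% intervals, blue where the interval leaves out 0 and grey where it holds 0. Cry1 at 20.04 h and Per2 at 15.2 h stand apart from the 4 genes between 11.3 and 12.45 h.

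The waves also differed in shape, which a second wave of 12 h added to the 24 h wave describes. Limma's moderated F for the 12 h terms called 1 of the 6, Ciart (12 h amplitude 0.49 ± 0.08, SE, adjusted p = 0.0160), against 0.577% of all genes. Ciart's plain cosine held 85.5% of the sum of squares between the times, and both waves together 98.0%. The Ciart call was lost without all arrays of CT09 (adjusted p = 0.0601), CT18 (0.107) or CT21 (0.0707) and without the 4 arrays of widest interquartile range (0.117). Per1 came next with 0.23 ± 0.05 (SE, adjusted p = 0.0571, limma), and it passed without CT00 replicate 1 (0.0463), CT06 replicate 3 (0.0488), CT12 replicate 2 (0.0415) or CT15 replicate 1 (0.0245). The 12 h amplitudes of Per3 (0.15 ± 0.05), Cry1 (0.09 ± 0.04), Cry2 (0.08 ± 0.03) and Per2 (0.07 ± 0.04) had adjusted p from 0.272 to 0.586 by the same test.

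Straight lines between the means, with CT21 joined to CT00, show where the shape departed from a plain wave. Ciart crossed the level midway between its highest and lowest mean upwards at 6.61 h and downwards at 15.98 h, and so spent 9.37 h above it (9.06 to 9.61 when each array was left out in turn). Per1 did nearly the same, from 7.09 to 16.5 h, with 9.43 h above (8.95 to 9.82). Per3 was up earlier, at 5.93 h, and down later, at 18.6 h, with 12.6 h above (12.1 to 13.1). Per3 thus had a broader top than Per1 and Ciart although its fitted peak lay close to theirs, a difference that was not tested. Per2 was above from 8.999 to 20.9 h, 11.9 h in all (11.2 to 12.5). Cry1 was above from 13.3 h through the night to 2.44 h, 13.2 h in all (12.8 to 13.5), and Cry2, with its dawn dip, from 3.51 to 21.9 h, 18.4 h in all (17.2 to 19.6). At the hours when Per1 and Ciart crossed downwards, Cry1 and Per2 were above their middles. CT03 was the one sampled time at which none of the 6 was above its own middle. For Cry2 the margin was small, as its upward crossing ranged from 2.29 to 4.37 h when each array was left out in turn.

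Changes from one time to the next show when each transcript rose and fell, and 7 of the 48 steps passed limma's moderated test at an adjusted p under 0.05. Between CT06 and CT09 Ciart rose by 1.44 ± 0.23 (log2, SE; adjusted p = 0.00213), Per1 by 0.78 ± 0.13 (adjusted p = 0.00474) and Per3 by 0.68 ± 0.15 (adjusted p = 0.0287), a step at which 0.176% of all genes rose. Cry1 rose by 0.67 ± 0.12 from CT12 to CT15 (adjusted p = 0.0112), where 0.401% of all genes rose. From CT15 to CT18 Ciart fell by 1.42 ± 0.23 (adjusted p = 0.0126) and Per1 fell by 0.69 ± 0.13 (adjusted p = 0.0374), where 0.1% of all genes fell. Per2 fell by 0.61 ± 0.13 from CT18 to CT21 (adjusted p = 0.0453), where again 0.1% fell. At the steps with no call for the 6, 0.0401% of all genes rose and 0.1% fell from CT03 to CT06, 0.0602% rose and 0.0451% fell from CT09 to CT12, and 0.00502% rose and 0% fell both from CT21 to CT00 and from CT00 to CT03. In the opposite direction to the calls above, 0.677% fell from CT06 to CT09, 0.166% fell from CT12 to CT15, 0.0451% rose from CT15 to CT18 and 0.115% rose from CT18 to CT21. No step of Cry2 passed in the fit as reported, and Per2's largest upward step, 0.47 ± 0.13 from CT06 to CT09, had an adjusted p of 0.0958. Neighbouring steps share a time, and each rests on 3 arrays a side. The step from CT21 to CT00 joins the last labelled time to the first, and so assumes that the cycle repeats.

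The rises of Ciart and Per1 from CT06 to CT09 passed under every alternative run, and the other 5 calls did not. Ciart's fall was lost without CT15 replicate 1 (adjusted p = 0.0553), without CT18 replicate 2 (0.106) and without the 4 arrays of widest interquartile range (0.150). Cry1's rise was lost without CT12 replicates 1 (0.0781) or 3 (0.104) or CT15 replicate 1 (0.0555) and with quantile normalization (0.0919). Per3's rise was lost without CT06 replicates 1 (0.0720), 2 (0.149) or 3 (0.0583), CT09 replicates 2 (0.107) or 3 (0.0810) or the 4 widest arrays (0.0826). Per1's fall was lost in 11 settings, among them leaving out CT00 replicate 2, CT06 replicates 1 or 2, CT09 replicate 1, CT15 replicates 1 or 3 or any array of CT18 (adjusted p from 0.0503 to 0.139). Per2's fall was lost in 16, among them leaving out any array of CT00 or CT09, replicate 1 of CT03, CT06 or CT12, replicates 1 or 3 of CT18 or replicates 2 or 3 of CT21 (0.0504 to 0.347). In the other direction, the step from CT03 to CT06 passed for Ciart (1.03 ± 0.23, adjusted p = 0.0812 as reported) without CT00 replicate 1 (0.00235) or 3 (0.0294). For Per3 (0.72 ± 0.15, adjusted p = 0.0535) it passed without CT00 replicates 1 (0.0241) or 3 (0.0294), CT12 replicate 2 (0.0307), CT15 replicate 2 (0.0491) or CT18 replicate 2 (0.0394). Ciart's step from CT12 to CT15 (-0.86 ± 0.23, adjusted p = 0.109) passed without CT00 replicate 1 (0.00521) or 3 (0.0469). Other settings added steps too. Cry2 from CT21 to CT00 (-0.33 ± 0.09, adjusted p = 0.183) passed with array weights (0.0108) and quantile normalization (0.0374), as did Cry1 from CT00 to CT03 (-0.60 ± 0.12, adjusted p = 0.262; 0.0186 and 0.0413) and Per3 from CT18 to CT21 (-0.57 ± 0.15, adjusted p = 0.192; 0.0342 and 0.0378). Per2 from CT21 to CT00 (-0.44 ± 0.13, adjusted p = 0.195) moved to -0.72 with quantile normalization (0.0485). Cry1 from CT09 to CT12 (0.50 ± 0.12, adjusted p = 0.108) passed with array weights (0.0303), and it (0.0494) and Per2 from CT06 to CT09 (0.0482) passed when the less variable genes were left out.

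**Figure D3:**
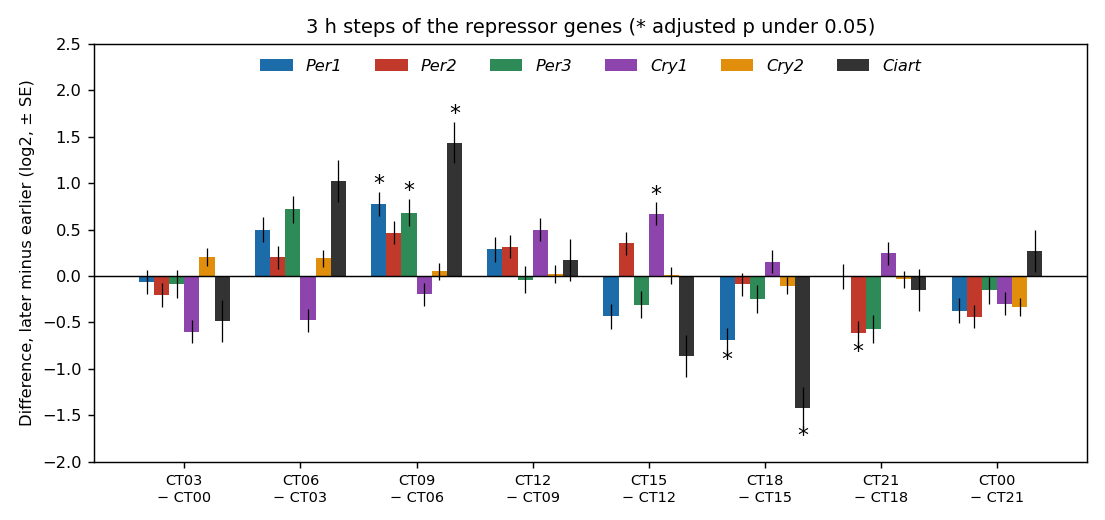
Bars are the difference in centred log2 value from the time 3 h before (later minus earlier, SE from limma) for the 6 genes. CT00 is set against CT21, the last labelled time. Stars mark an adjusted p under 0.05. The starred rises of Ciart (1.44), Per1 (0.78) and Per3 (0.68) fall at CT09, that of Cry1 (0.67) at CT15.

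The arrays of CT00 were far apart for Ciart and Per3. The SD of the 3 arrays of CT00 was 0.71 for Ciart against a pooled SD of 0.19 at the other times and 0.33 against 0.17 for Per3, the widest of the 8 times for both genes. For Cry2 it was 0.19 at CT00 and likewise 0.19 at CT03. For Per1 (0.15 against 0.18), Per2 (0.09 against 0.17) and Cry1 (0.09 against 0.17) it was not wider, and these genes had their widest SD at CT21 (Per1 and Per2) and CT12 (Cry1). Ciart, Per3, Per1 and Cry2 were all lowest on CT00 replicate 1 and highest on CT00 replicate 3. Dbp, Nr1d1, Nr1d2 and Tef, clock genes outside the 6, had the same order on these arrays. Dbp, a PAR bZIP factor, read -1.94, -0.64 and -0.04, and the REV-ERB genes read -1.71, -0.78 and -0.17 (Nr1d1) and -1.77, -0.82 and -0.21 (Nr1d2). Arntl, which encodes BMAL1, had the opposite order over a narrow range, 0.82, 0.76 and 0.70. Leaving out CT00 altogether kept the 24 h call of all 6 genes.

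**Figure D4:**
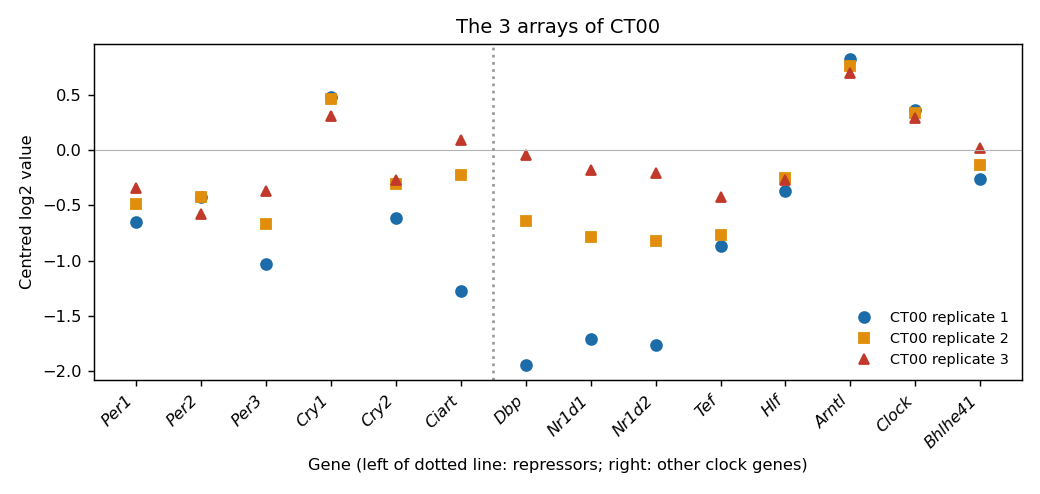
Centred log2 value of the 6 repressor genes (left of the dotted line) and 8 other clock genes on the 3 arrays of CT00, 1 symbol for each array. Ciart runs from -1.28 to 0.09 and Dbp from -1.94 to -0.04, while Arntl, Clock, Hlf and Per2 keep within a narrow range.

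Deviations from the time means were compared over all 24 arrays to see which repressors varied together between livers. The strongest relation was that of Per3 and Ciart, with Pearson's r = 0.71 (permutation within times, two-sided p = 0.0162, adjusted 0.141 over 15 pairs) and Spearman's rho = 0.54 (permutation p = 0.0383, adjusted 0.255). Without the 2 arrays farthest from the median of Per3 its r was 0.55. Of the 15 pairs, 4 had an unadjusted permutation p under 0.05 by r and 2 by rho, and 0 passed after Benjamini-Hochberg adjustment by either. The other 3 by r were Per3 with Cry2 (0.54; rho 0.48), Per1 with Ciart (0.45; rho 0.44) and Cry1 with Ciart (-0.39; rho -0.39). The other by rho was Per2 with Cry1 (rho 0.53, permutation p = 0.0354, adjusted 0.255; r 0.50). Without CT18 replicate 2, Per1 with Ciart (0.55) and Cry1 with Ciart (-0.49) passed with an adjusted permutation p of 0.0266 each. Per1 and Per2 had r = -0.03. The sources used here give no slide or scan batch, so none was tested.

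Ciart is the only one of the 6 with 2 probe sets, and both carry the same symbol and transcripts in the annotation. Called the first (10373452) and the second (10500272), they gave 6.88-fold with a crest at 11.03 h ± 0.39 (SE) and 5.03-fold at 11.5 h ± 0.40. Both passed the 24 h test and the 12 h test when probe sets were tested one by one (12 h adjusted p = 0.0191 and 0.0392, limma). They parted most at CT18, where the first read -0.83 ± 0.08 and the second -0.36 ± 0.48 (SD, n = 3). The second minus the first at CT18 averaged 0.47 and ranged from -0.04 to 0.83, since 2 of its 3 arrays there stayed near 0. At CT09 the second was lower on all 3 arrays, by a mean of -0.29. Both probe sets dropped most between CT15 and CT18, and the difference between them was not tested.

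**Figure D5:**
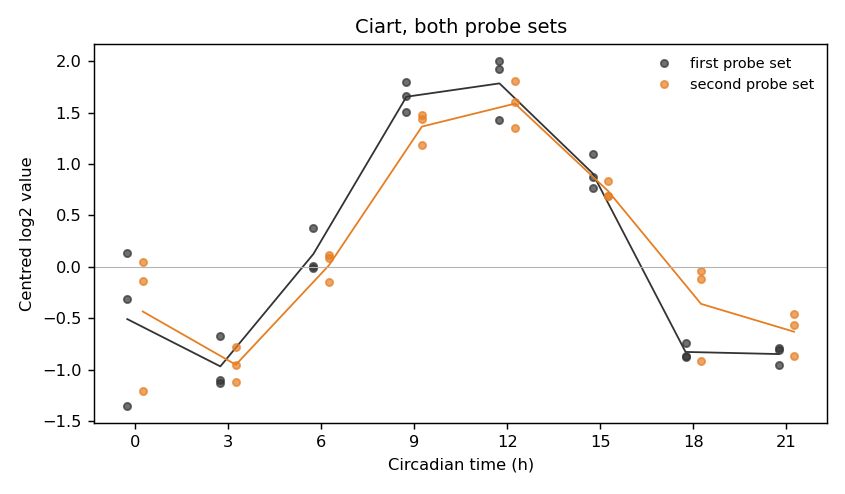
Centred log2 value against circadian time in h for both probe sets of Ciart, with 3 arrays a time as dots (shifted slightly sideways) and lines through the means. The means of CT18 are -0.83 on the first and -0.36 on the second probe set.

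Other genes ran in step with each repressor, here ranked by Pearson's correlation over the 24 arrays, a description of points that share the arrays and the time course. Closest to Per3 was Tef, a PAR bZIP factor that binds D-boxes (r = 0.98), with a crest at 12.0 h ± 0.25 (SE) and a fold of 2.62, followed by the zinc carrier gene Slc39a14 (0.92) and the glycogen synthase gene Gys2 (0.91). Ciart was followed by Slc5a6, which encodes a vitamin transporter (0.97, crest at 11.0 h), Coq10b (0.94) and the cyclin E gene Ccne1 (0.93). Nearest to Per1 were Usp2, a ubiquitin protease gene (0.93, crest at 13.0 h), the Krüppel-like factor gene Klf13 (0.93) and Coq10b (0.93), which stood in both lists. The genes most like Per2 were Tspan4 (0.92), Tedc2 (0.91) and Marveld1 (0.91), with crests at 16.1, 15.3 and 15.3 h. Cry1's nearest were Nop16 (0.90), Zbtb21 (0.89) and Ppp1r3b, a glycogen targeting subunit gene (0.88), with crests from 19.2 to 20.8 h. The correlations of Cry2 were lower, with the kinase gene Mknk2 (0.81), Glt1d1 (0.80) and Igfbp4 (0.80). Among the 6 themselves, Per1 and Ciart had the highest (0.92), then Per3 with Ciart (0.90) and with Per1 (0.89), while Per1 and Per2 had 0.58 and Cry1 with Ciart -0.58.

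Of 14 tested kinases and phosphatases that act on PER and CRY proteins, 5 were called in the 24 h fit and their median fold was 1.10, beside 13.8% and 1.07 for all genes. The smallest p belonged to the casein kinase 2 subunit gene Csnk2a2 (1.29-fold, crest at 7.90 h), the phosphatase gene Ppp1ca (1.23-fold, 3.49 h) and the AMP kinase gene Prkaa2 (1.28-fold, 14.97 h). Of 12 ubiquitin ligases and proteases 4 were called (median fold 1.11): Usp2 with 4.09-fold at 13.0 h, the ligase genes Cul4a (1.22-fold, 11.1 h) and Ddb1 (1.13-fold, 11.5 h), and Btrc (1.16-fold, 3.97 h). Among 17 proteins of the PER and CRY complexes 3 were called (median fold 1.10), the helicase gene Dhx9 (1.38-fold, 11.4 h), the corepressor gene Sin3a (1.21-fold, 8.38 h) and the splicing factor gene Sfpq (1.27-fold, 15.1 h). Limma's test of the 8 times called 2 of the 14, 2 of the 12 and 5 of the 17, beside 10.9% of all genes. Prkaa2 (adjusted p = 0.0817), Ddb1 (0.0584) and Btrc (0.0656) did not pass it.

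Of 11 activators and coactivators 5 were called, again beside 13.8% of all genes (median fold 1.13), led by the targets of PER and CRY themselves, Arntl (5.20-fold, 22.7 h) and Clock (1.84-fold, 23.5 h), followed by the acetyltransferase gene Kat2b (1.44-fold, 8.69 h). A list of other clock genes had 8 of 9 called with a median fold of 2.11 beside the same 13.8%, and how each of them is controlled was not tested. The smallest p in it were those of Tef, Nr1d1 (10.3-fold, 7.29 h) and Dbp (7.73-fold, 10.1 h). Of 17 factors that carry signals to the Per genes 7 were called, beside the same 13.8% (median fold 1.16), the first 3 being the nuclear receptor gene Ppara (1.71-fold, 9.86 h), the immediate early gene Egr1 (1.64-fold, 2.89 h) and the CREB coactivator gene Crtc3 (1.26-fold, 22.7 h). The test of the 8 times called 3 of the 11, 8 of the 9 and 6 of the 17, beside 10.9% of all genes. All calls in this and the previous lists are limma's at an adjusted p under 0.05.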

How the data were processed

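The deposited table holds log2 values (base assumed) of 28815 probe sets on 24 arrays, per the labels' protocols made from total RNA of separately extracted livers (RNeasy), biotin labelled and hybridized to Affymetrix Mouse Gene 1.0 ST arrays. How the authors corrected background, summarized and normalized is not given in the sources used here. These steps could change small differences. Row medians were 0 within 5e-07, so a filter on dim genes was not possible. The 21780 probe sets with a single symbol entered as gene means, and 1605 with several symbols and 5430 not listed were left out. Limma 3.58.1 in R 4.3.3 fitted all 19935 genes with empirical Bayes moderation, Benjamini-Hochberg adjustment over all genes and a threshold of 0.05. Errors of amplitudes and peak times are by the delta method. Gap intervals use the residual covariance of both genes and 21 degrees of freedom. Correlations used 100000 permutations within times. The 24 h fit and the gap intervals were tried on simulated plain 24 h cosines with normal noise, and the outcome is not given here. These had no 12 h wave and amplitudes below that of Ciart, and for the gaps above that of Cry2. Alternatives were other probe set choices, scalings, weights, filters and left-out arrays or times. The members, gene lists and tests were chosen with earlier results of these data known. Named genes are the 6 members, the 3 most correlated genes of each, and the 3 smallest 24 h p of each list, with Btrc, the markers and the clock genes at CT00 named after their values were seen.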

Additional observations from a re-analysis of the deposited data

How the results depend on the processing

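The 24 h call of all 6 genes held in all 41 alternative settings, and the test of the 8 times called 5 or 6. Fitted peak times of Per1, Per3, Cry1 and Ciart moved by more than their SE in some settings. All genes called in the 24 h fit numbered 1978 (without CT12) to 2984 (replicate block), against 2758. The count for a 12 h component, 1 as reported, was 2 with array weights and without the less variable genes, 0 without CT09, CT18 or CT21, 0 without the 4 arrays of widest interquartile range, and 1 to 2 when single arrays were left out. The count of called 3 h steps, 7 as reported, was 12 with array weights, 12 without the less variable genes, 3 without the 4 widest arrays and 4 to 9 without single arrays. Within-time correlations that passed numbered 0, and 0 to 2 without single arrays. The cause of these shifts was not tested, apart from the smaller number of genes or arrays that some settings use by construction. The replicate block left 6, 6 and 1 members called in the 3 fits, 10 gaps and 8 steps (Per3 from CT03 to CT06 gained, adjusted p = 0.0273). Deviations of same-numbered arrays of different times correlated above 0.1 in 45 of 84 pairs. Their median r was 0.11. The median r of -0.06 for arrays of different numbers follows largely from subtracting the time means and is no separate reference. Whether the replicate numbers mark a shared effect was not tested, and the fits as reported hold no replicate block. Of the 15 gaps, 9 to 12 left out 0 over the settings. Centred values carry no brightness, so which small waves lie near background is unknown.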
